A study of Homo sapiens with 12 samples.

Results

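The genes described are 60 nucleolar ribosome assembly factors, taken by gene symbol from a table of 59251 genes: 8 proteins of the small nucleolar ribonucleoproteins (snoRNPs), 26 factors of the small ribosomal subunit, 22 factors of the large ribosomal subunit and 4 factors that act at several steps. The rule used gene names and known function, not measured values, but the genes were chosen with earlier results of these data known. RNA-Seq was performed on HL60 cells, an established human acute myeloid leukemia line that lacks PML-RARA, grown in RPMI1640 with fetal bovine serum. Non-treated cells were compared with cells exposed for 48 h to 1 µM ATRA (all-trans retinoic acid, a ligand of the retinoic acid receptors that drives myeloid differentiation), to 1 µM palbociclib (CDK4/6i, an inhibitor of the kinases CDK4 and CDK6 that arrests cells in G1), or to both (CDK4/6i+ATRA). Each group had 3 libraries that the labels call biological replicates of the same line. The comparisons asked how each drug, and the drugs together, changed the transcripts of the assembly factors, and whether the effect of both differed from the sum of the single effects.

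Ribosomes are built in the nucleolus, where RNA polymerase I transcribes a long precursor of the rRNAs. Box C/D and box H/ACA snoRNPs guide methylation and pseudouridylation of this precursor. The small subunit processome, made of the UTP-A and UTP-B complexes and many other factors, assembles on its front part and gives rise to the pre-40S particle, while a separate chain of factors builds the pre-60S particle. This work takes up much of the energy of dividing cells.

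Library totals ranged from 12230923 to 18679544 counts, and 3 counts corresponded to 0.161 to 0.245 CPM, the unit of counts scaled to library size, in a library. Same-group libraries differed by more than sampling noise in each of the pairs compared, so none was counted as a duplicate. Of the promyelocyte markers, MPO and CTSG were measured, while ELANE, AZU1 and PRTN3 were listed at 0 in every library. The summed level of this list ran from 6654 to 6844 CPM in non-treated cells, 286 to 344 under ATRA, 3600 to 3660 under CDK4/6i and 21.6 to 29.1 under CDK4/6i+ATRA. The 6 proliferation markers summed to 2570 to 2662 CPM in non-treated cells, 3204 to 3303 under ATRA, 341 to 367 under CDK4/6i and 53.4 to 58.0 under CDK4/6i+ATRA, and all 6 fell under CDK4/6i and under CDK4/6i+ATRA. Under ATRA 4 of the 6 rose, while PCNA (log2 fold change -0.35) and MCM2 (-0.52) fell. The 6 myeloid differentiation markers rose under ATRA and under CDK4/6i+ATRA, and 5 of them rose under CDK4/6i. Their sum was 193 to 206 CPM in non-treated cells, 4911 to 5018 under ATRA, 637 to 667 under CDK4/6i and 5436 to 5737 under CDK4/6i+ATRA. The 6 erythroid genes were at 0, the T cell list summed to at most 3.27 CPM, and the B cell list, with CD79A as its measured gene, to 11.2 to 26.6 CPM. The part of these markers in the results below was not tested. In bulk RNA, fewer cells with a transcript and less transcript per cell cannot be told apart.

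The 60 genes together took 1.47% to 1.52% of all counts in non-treated libraries. Their share was 1.28% in each CDK4/6i library, 0.685% to 0.709% under ATRA, and 0.381% to 0.399% under CDK4/6i+ATRA. The 4 groups did not overlap. All 60 passed the filter on low counts, and the lowest count of any of them was 17, for BRIX1 under CDK4/6i+ATRA.

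Under ATRA, 58 of the 60 genes fell and none rose. Of all 13318 genes tested, 35.5% fell and 32.1% rose. The log2 fold change had a median of -1.14 over the 60 genes and of -0.03 over all genes. A fall of at least 2-fold was seen for 43 of the 60, beside 8.88% of all genes, and the values ran from -2.01 for RRP9 to -0.05 for UTP3. Genes were called with edgeR's quasi-likelihood F test at a p under 0.05 after Benjamini-Hochberg adjustment across the whole table.

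CDK4/6i alone gave smaller changes in both directions. Here 45 of the 60 genes fell, beside 27.9% of all genes, and 6 rose, beside 28.3%. The median log2 fold change was -0.24, against 0.02 over all genes. None fell by as much as 2-fold, which 5.52% of all genes did, and the values ran from -0.86 for UTP20 to 0.59 for UTP3.

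Under CDK4/6i+ATRA, 56 of the 60 genes fell, beside 40.7% of all genes, and 3 rose (NOP10, UTP3 and PPAN), beside 41%. The median log2 fold change was -1.72 against 0.02 over all genes, 49 genes fell by at least 2-fold (23.3% of all genes did), and the values ran from -3.00 for RRP9 to 0.91 for PPAN. The 3 treatments share the non-treated libraries, so their values are not independent of each other. In 49 of the 60 genes, all 3 libraries of CDK4/6i+ATRA were below those of each other group, which held for 25.7% of all genes tested.

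By pattern, 45 genes fell in all 3 treatments, as 15.1% of all genes tested did. Another 8 (9.83% of all genes) fell under ATRA and under CDK4/6i+ATRA but did not pass the test under CDK4/6i, namely NPM1, NOP2, WDR3, WDR12, GNL3L, NOC2L, RIOK2 and NOL6. UTP6, UTP14A and NOB1 fell under ATRA and under CDK4/6i+ATRA and rose under CDK4/6i (4.83% of all genes). NOP10 and UTP3 rose under CDK4/6i and under CDK4/6i+ATRA and were not called under ATRA (4.26%). PPAN fell under ATRA and rose in the other 2 treatments (1.52%), and RRP12 fell under ATRA and was not called in the others (1.64%). Of the 45, LTV1 under CDK4/6i was near the threshold (log2 fold change -0.11, adjusted p 0.043) and was not called under several other settings, DESeq2 among them. GNL3L under CDK4/6i (0.09) was called higher under some other settings, among them DESeq2 size factors (0.097) and library size alone (0.10). WDR3 was called lower under CDK4/6i without non-treated library 3 or CDK4/6i library 1 (-0.11 in both), and the rise of UTP6 was not called with no filter (0.11).

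**Figure D1:**
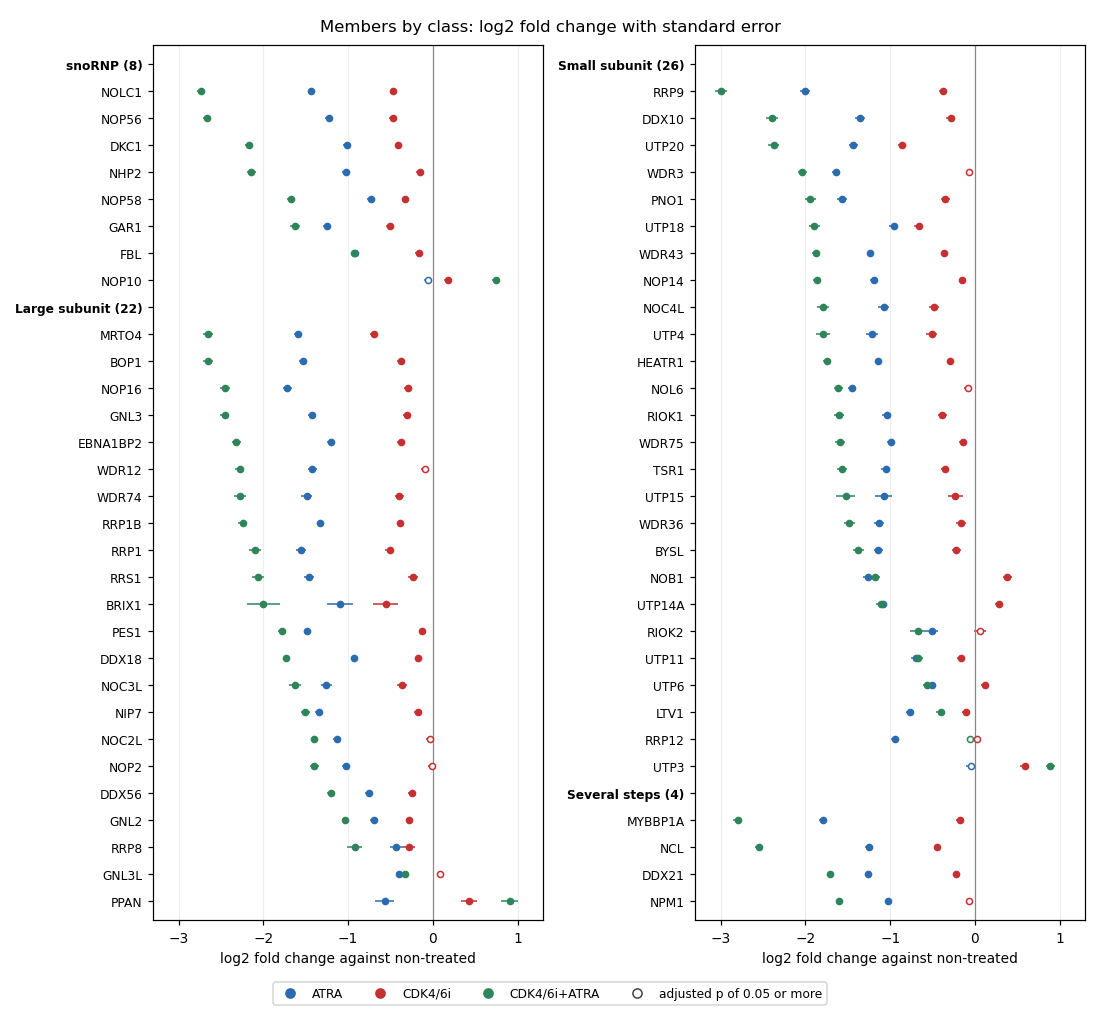
Log2 fold change against non-treated cells (x axis) of each of the 60 genes, grouped by class and ordered by the CDK4/6i+ATRA value: ATRA in blue, CDK4/6i in red and CDK4/6i+ATRA in green. Bars are standard errors and open points have an adjusted p of 0.05 or more. Most green points lie left of the blue ones, from -3.00 for RRP9, while NOP10, UTP3 and PPAN lie right of 0.

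The treatments were also compared with each other, in contrasts of the same fit. CDK4/6i+ATRA was lower than CDK4/6i in 56 of the 60 genes (39.5% of all genes) and higher in 3 (39.1%), with a median log2 difference of -1.45. It was lower than ATRA in 48 genes (32.8% of all genes), higher in 5 (36.9%) and not called in 7, with a median of -0.55. Under library size alone, 55 were lower and 4 higher, with a median of -0.86, where 48.1% of all genes were lower. ATRA was lower than CDK4/6i in 59 of the 60 genes (35.6% of all genes), with a median of -0.88.

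The class level of a library was taken as the median over members of log2 CPM minus the non-treated mean. Under ATRA it was -1.03 ± 0.04 for snoRNP proteins, -1.11 ± 0.06 for small subunit factors, -1.28 ± 0.03 for large subunit factors and -1.26 ± 0.04 for the factors of several steps (SD, n = 3). Under CDK4/6i the corresponding levels were -0.36 ± 0.02, -0.20 ± 0.03, -0.27 ± 0.03 and -0.20 ± 0.0048.

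Under CDK4/6i+ATRA the class level was -1.89 ± 0.04 for snoRNP proteins, -1.62 ± 0.03 for small subunit factors, -1.85 ± 0.06 for large subunit factors and -2.13 ± 0.04 for the factors of several steps. SnoRNP libraries ranged from -1.93 to -1.84 and large subunit libraries from -1.88 to -1.78, so these classes overlapped, whereas small subunit libraries, at -1.65 to -1.59, lay above both. Between CDK4/6i+ATRA and ATRA, the median log2 difference was -1.03 for snoRNP proteins, -0.57 for large subunit factors and -0.42 for small subunit factors. Under library size alone these medians were -1.33, -0.88 and -0.73. Between-class differences were described and not tested, since the members of a class are not replicates.

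**Figure D2:**
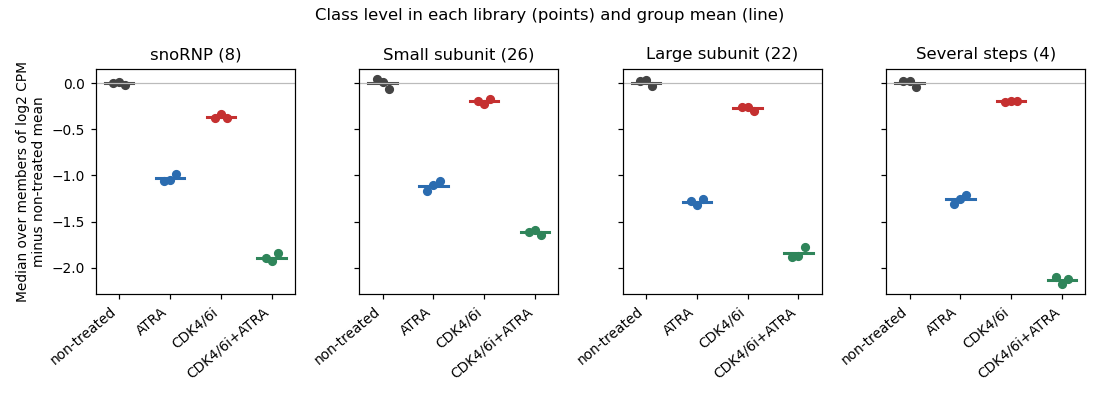
Class level in each library, as the median over members of log2 CPM minus the non-treated mean (y axis), for the 4 groups (x axis) and the 4 classes (panels). Points are libraries and lines are group means. In each class the groups are ordered non-treated, CDK4/6i, ATRA and CDK4/6i+ATRA without overlap.

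Among the snoRNP proteins, 7 of 8 fell under CDK4/6i+ATRA and NOP10 rose. The core of box C/D particles includes NOP56, NOP58 and the methyltransferase fibrillarin (FBL). NOP56 (chr20:2652632-2658393 in hg38) stood at 286, 292 and 296 CPM in non-treated cells, at 118, 129 and 126 under ATRA, at 194, 223 and 213 under CDK4/6i, and at 47.1, 47.5 and 43.5 under CDK4/6i+ATRA. The groups did not overlap, and the last was 6.34-fold lower than non-treated cells, with a log2 fold change of -2.66 ± 0.05 (SE).

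NOP58 went from 169, 177 and 178 CPM to 103, 109 and 103 under ATRA, 136, 143 and 138 under CDK4/6i, and 54.2, 57.1 and 53.0 under CDK4/6i+ATRA. FBL behaved otherwise. Its levels were 695, 653 and 641 CPM in non-treated cells, 362, 349 and 343 under ATRA, 615, 570 and 585 under CDK4/6i, and 331, 354 and 362 under CDK4/6i+ATRA. ATRA and CDK4/6i+ATRA overlapped for FBL, with a log2 difference of -0.01 ± 0.04, although scaling by library size alone called it lower (-0.32). Per length, NOP56 was present at 0.224 ± 0.0128 of the FBL level in non-treated cells, at 0.180 ± 0.0126 under ATRA, at 0.182 ± 0.0198 under CDK4/6i and at 0.0673 ± 0.00576 under CDK4/6i+ATRA. For NOP58 the same ratio was 0.149 ± 0.0104 in non-treated cells, 0.169 ± 0.00794 under ATRA, 0.133 ± 0.00831 under CDK4/6i and 0.0886 ± 0.00537 under CDK4/6i+ATRA.

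Box H/ACA particles hold the pseudouridine synthase dyskerin (DKC1) with NHP2, NOP10 and GAR1. DKC1 fell from 318, 329 and 311 CPM to 151, 153 and 170 under ATRA, 244, 238 and 240 under CDK4/6i, and 73.9, 71.7 and 67.9 under CDK4/6i+ATRA. NHP2 fell from 134, 132 and 129 CPM to 63.8, 64.3 and 65.2 under ATRA, 118, 118 and 118 under CDK4/6i, and 26.5, 29.1 and 33.6 under CDK4/6i+ATRA. Neither gene's groups overlapped. For NHP2, 41.4% of exon bases lie opposite to RMND5B, and whether reads were counted by strand was not given in the sources used here.

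GAR1 stood at 114, 115 and 112 CPM in non-treated cells, 51.0, 48.2 and 44.4 under ATRA, 84.3, 80.3 and 75.8 under CDK4/6i, and 38.4, 34.9 and 36.9 under CDK4/6i+ATRA. NOP10, the smallest protein of the core, was the exception. It was found at 81.4, 82.0 and 79.6 CPM in non-treated cells, 79.4, 74.2 and 79.6 under ATRA, 95.1, 91.4 and 88.4 under CDK4/6i, and 124, 139 and 145 under CDK4/6i+ATRA. Every CDK4/6i+ATRA library lay above all others, at 1.68-fold the non-treated level (log2 fold change 0.75 ± 0.05). Per length, the ratio of NOP10 to DKC1 was 2.20 ± 0.0342 in non-treated cells, 4.28 ± 0.251 under ATRA, 3.31 ± 0.0976 under CDK4/6i and 16.6 ± 1.95 under CDK4/6i+ATRA. The ratio of NHP2 to DKC1 was 2.00 ± 0.0520 in non-treated cells, 1.98 ± 0.103 under ATRA, 2.38 ± 0.0300 under CDK4/6i and 2.03 ± 0.336 under CDK4/6i+ATRA. That of GAR1 to DKC1 was 1.07 ± 0.0204, 0.914 ± 0.116, 0.999 ± 0.0461 and 1.55 ± 0.0846 in the same order. FBL and NOP10 are also listed on 1 alternate or patch contig each. The listed length was 2250 bases for FBL, against 1125 on the primary chromosome, and 1014 against 507 for NOP10. How reads with several matches were counted was not given in the sources used here. The levels and ratios per length of these 2 genes are therefore uncertain.

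NOLC1, a chaperone that shuttles snoRNPs between nucleolus and Cajal bodies, fell furthest in this class under ATRA and under CDK4/6i+ATRA. Its levels were 590, 596 and 588 CPM in non-treated cells, 212, 221 and 225 under ATRA, 422, 436 and 427 under CDK4/6i, and 89.8, 87.7 and 88.5 under CDK4/6i+ATRA. The groups did not overlap, and the last was 6.67-fold lower than non-treated cells (log2 fold change -2.74 ± 0.04).

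**Figure D3:**
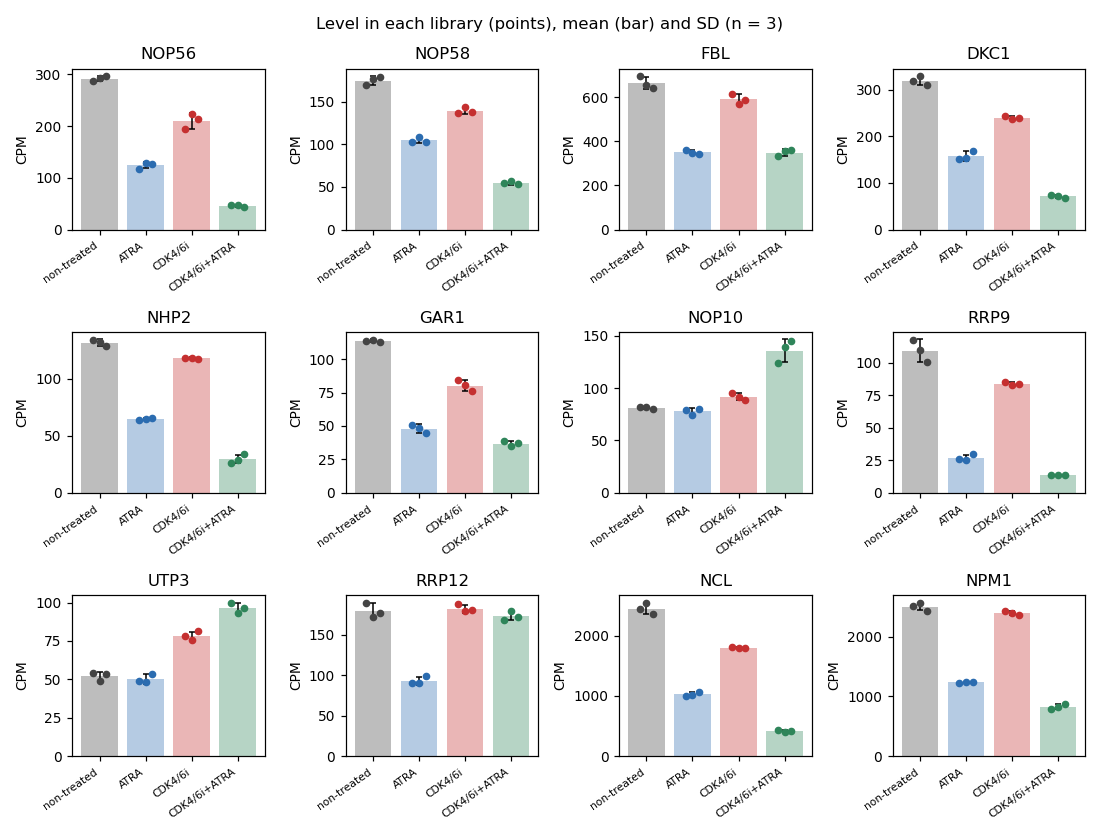
Level in CPM (y axis, from 0) of 12 genes in the 4 groups (x axis), with libraries as points, the mean as a bar and the SD (n = 3) as an error bar. NOP56 falls from 291 CPM to 46.0 under CDK4/6i+ATRA, NOP10 rises from 81.0 to 136, and for RRP12 the ATRA libraries, from 90.3 to 98.9, lie below all others.

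Of the 26 small subunit factors, 24 fell under CDK4/6i+ATRA, UTP3 rose and RRP12 was not called. UTP-A, the complex that binds the start of the precursor, is represented among them by 5 genes, which fell with log2 fold changes from -1.88 for WDR43 to -1.52 for UTP15. NOL11, a UTP-A subunit outside the 60 genes, fell by 1.32 on the log2 scale. Of UTP-B, 4 genes are among the 60, with values of -2.04 for WDR3, -1.90 for UTP18, -1.48 for WDR36 and -0.57 for UTP6. The UTP-B subunits PWP2 and TBL3, outside the 60, had values of -2.10 and -1.88.

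RRP9 (chr3:51933429-51941904), the protein that marks the U3 snoRNP at the heart of the processome, fell furthest of the 60 under ATRA and under CDK4/6i+ATRA. It went from 118, 110 and 100 CPM in non-treated cells to 26.01, 25.6 and 29.8 under ATRA, 85.5, 82.8 and 83.9 under CDK4/6i, and 13.5, 13.5 and 14.0 under CDK4/6i+ATRA. The groups did not overlap, and the last was 8.002-fold lower than non-treated cells (log2 fold change -3.00 ± 0.07). DDX10, a helicase of the processome, fell from 96.7, 96.0 and 87.0 CPM to 33.7, 35.1 and 40 under ATRA, 76.9, 77.2 and 74.96 under CDK4/6i, and 15.5, 17.6 and 19.8 under CDK4/6i+ATRA.

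UTP20, a large scaffold protein, showed the strongest fall of the 60 under CDK4/6i alone. It stood at 104, 102 and 103 CPM in non-treated cells, 37.8, 36.4 and 40.2 under ATRA, 60.4, 55.3 and 54.5 under CDK4/6i, and 21.2, 19.1 and 19.5 under CDK4/6i+ATRA. WDR3, by contrast, was not called under CDK4/6i. Its non-treated libraries held 199, 201 and 184 CPM and its CDK4/6i libraries 194, 177 and 184, which overlapped, while ATRA gave 63.0, 60.8 and 63.3 and CDK4/6i+ATRA 47.8, 46.0 and 48.6.

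Calls of the factors that act on the late pre-40S particle, between CDK4/6i+ATRA and ATRA, depended on the scaling. Of 8 genes, BYSL, PNO1, TSR1 and RIOK1 were lower, RRP12 and LTV1 higher, and NOB1 and RIOK2 not called, where 32.8% of all genes were lower and 36.9% higher. The log2 differences ran from -0.57 for RIOK1 to 0.89 for RRP12, with a median of -0.20 beside 0.04 over all genes. Under library size alone NOB1 (-0.22) and RIOK2 (-0.47) were also called lower and LTV1 was no longer called, and with no filter RIOK2 was lower (-0.26). RRP12, which helps to export pre-ribosomes, held 189, 172 and 177 CPM in non-treated cells, 90.5, 90.3 and 98.9 under ATRA, 187, 179 and 180 under CDK4/6i, and 168, 179 and 172 under CDK4/6i+ATRA. Only the ATRA libraries stood apart from the other groups, and CDK4/6i+ATRA was 1.85-fold above ATRA (log2 difference 0.89 ± 0.04). Against non-treated cells RRP12 was not called, at -0.05 ± 0.04, but scaling by library size alone gave a fall (-0.32).

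LTV1, a pre-40S factor that is released before the subunit matures, was also higher under CDK4/6i+ATRA than under ATRA. It measured 85.9, 86.7 and 85.3 CPM in non-treated cells, 49.3, 50.7 and 51.6 under ATRA, 77.2, 81.9 and 80.2 under CDK4/6i, and 69.3, 63.8 and 62.0 under CDK4/6i+ATRA. The groups did not overlap, but the log2 difference of 0.36 ± 0.05 from ATRA was 0.06 and not called under library size alone. NOB1, the endonuclease that trims 18S rRNA, rose under CDK4/6i (log2 fold change 0.38) and fell under ATRA (-1.27) and under CDK4/6i+ATRA (-1.18).

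UTP3, a processome protein also known as SAS10, rose under CDK4/6i and under CDK4/6i+ATRA. Its libraries held 53.9, 48.8 and 53.6 CPM in non-treated cells, 49.1, 48.0 and 53.7 under ATRA, 78.2, 75.9 and 81.2 under CDK4/6i, and 99.9, 93.3 and 96.6 under CDK4/6i+ATRA. Non-treated and ATRA libraries overlapped, and both CDK4/6i groups lay above them. The rise of CDK4/6i+ATRA against non-treated cells was 1.85-fold. The log2 difference of CDK4/6i+ATRA from CDK4/6i, 0.30 ± 0.05, was 0.02 and not called under library size alone.

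Of the 22 large subunit factors, 21 fell under CDK4/6i+ATRA and PPAN rose. The PeBoW complex, which is needed for processing of the 32S precursor, fell in all 3 parts, with log2 fold changes of -2.65 for BOP1, -2.28 for WDR12 and -1.78 for PES1. BOP1 went from 161, 156 and 144 CPM to 52.8, 53.7 and 52.7 under ATRA, 121, 114 and 119 under CDK4/6i, and 24.0, 23.3 and 25.9 under CDK4/6i+ATRA, without overlap of the groups. BOP1 is also listed on 1 alternate contig.

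MRTO4, which prepares the site of the ribosomal stalk, fell from 181, 198 and 175 CPM to 62.9, 59.5 and 61.2 under ATRA, 115, 117 and 110 under CDK4/6i, and 33.4, 28.9 and 25.9 under CDK4/6i+ATRA. NOP16, a pre-60S factor, went from 114, 116 and 113 CPM to 31.1, 37.0 and 36.0 under ATRA, 95.2, 95.5 and 89.2 under CDK4/6i, and 20.9, 21.1 and 20.5 under CDK4/6i+ATRA. The groups of both genes were separate.

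The nucleolar GTPases differed among themselves. GNL3 (nucleostemin), found in stem cells and tumor cells, went from 222, 239 and 224 CPM to 82.2, 85.4 and 87.8 under ATRA, 175, 194 and 184 under CDK4/6i, and 45.6, 42.3 and 37.5 under CDK4/6i+ATRA, a 5.48-fold fall. Its relative GNL3L went from 146, 138 and 140 CPM to 115, 106 and 101 under ATRA, 151, 152 and 149 under CDK4/6i, and 117, 109 and 111 under CDK4/6i+ATRA, a 1.26-fold fall. The ATRA and CDK4/6i+ATRA libraries of GNL3L overlapped, with a log2 difference of 0.06 ± 0.05 that turned to -0.24 under library size alone. GNL2 lay between them, at -1.03.

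PPAN was found at 14.4, 13.2 and 11.4 CPM in non-treated cells, 8.75, 9.21 and 8.29 under ATRA, 19.4, 17.1 and 15.5 under CDK4/6i, and 24.7, 25.3 and 23.1 under CDK4/6i+ATRA. The groups did not overlap, and CDK4/6i+ATRA was 1.88-fold above non-treated cells. Since 56.2% of its exon bases are shared on the same strand, mostly with the readthrough gene PPAN-P2RY11 that had 0 counts, its level is uncertain. The same holds for BRIX1, which shares 68.5% with other genes and fell from 9.44, 10.2 and 8.11 CPM to 2.38, 1.52 and 2.97 under CDK4/6i+ATRA.

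The 4 factors of several steps all fell under ATRA and under CDK4/6i+ATRA. Nucleolin (NCL), which binds the precursor, went from 2444, 2544 and 2352 CPM to 993, 1012 and 1069 under ATRA, 1810, 1787 and 1791 under CDK4/6i, and 433, 407 and 415 under CDK4/6i+ATRA, a 5.85-fold fall. Nucleophosmin (NPM1), a histone chaperone of the nucleolus, went from 2522, 2563 and 2436 CPM to 1225, 1241 and 1241 under ATRA, 2433, 2400 and 2358 under CDK4/6i, and 789, 827 and 866 under CDK4/6i+ATRA, a 3.03-fold fall. NCL groups did not overlap, while the CDK4/6i libraries of NPM1 lay just below the non-treated ones, with a log2 fold change of -0.06 ± 0.04 that was not called.

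DDX21, a helicase that links RNA polymerase I transcription to snoRNAs, went from 1032, 1019 and 977 CPM to 407, 426 and 428 under ATRA, 884, 865 and 852 under CDK4/6i, and 311, 298 and 316 under CDK4/6i+ATRA. MYBBP1A, a nucleolar protein that acts in precursor processing, went from 175, 167 and 170 CPM to 46.0, 50.5 and 51.0 under ATRA, 147, 152 and 154 under CDK4/6i, and 25.2, 23.4 and 25.04 under CDK4/6i+ATRA. MYBBP1A fell 6.96-fold and DDX21 3.27-fold, and neither gene's groups overlapped.

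NPM1 had the highest level per length of the 60 genes in each group. Per kilobase of exon, the level ran in non-treated cells from 4.53 CPM per kb for UTP15 to 1156 for NPM1, with a median of 38.2. NCL at 624 and FBL at 589 followed NPM1, and their libraries overlapped. Under CDK4/6i+ATRA the median was 13.0 CPM per kb, NPM1 stood at 382, FBL at 310, NOP10 at 268 and NCL at 107. UTP3, RRP12 and LTV1, at 47.8, 36.3 and 32.6 CPM per kb, were among the 10 highest in this group and not among the 10 highest in non-treated cells.

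The interaction asked whether the log2 effect of CDK4/6i+ATRA differed from the sum of the single effects. It was negative in 34 of the 60 genes (27% of all genes tested), positive in 7 (24.5% of all genes) and not called in 19, with a median of -0.26 against -0.02 over all genes. By class, 5 of 8 snoRNP proteins, 11 of 26 small subunit factors, 14 of 22 large subunit factors and 4 of 4 factors of several steps were negative. The class medians were -0.68, -0.20, -0.35 and -0.67. The interaction depended on the scaling. Under library size alone the median of all genes moved to -0.34. There 54 of the 60 genes were negative and 3 positive. Of all 13318 genes tested, 45.5% were negative and 1375 genes were positive under that scaling. Of all calls of an interaction, 52.5% were negative with TMM and 81.5% with library size alone.

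Most negative were NOP56 (-0.96 ± 0.07), NHP2 (-0.96 ± 0.08), NCL (-0.85 ± 0.06), NOLC1 (-0.84 ± 0.05) and MYBBP1A (-0.83 ± 0.07). Positive values were found for PPAN (1.05 ± 0.15), RRP12 (0.87 ± 0.06), NOP10 (0.63 ± 0.07), LTV1 (0.47 ± 0.07), UTP3 (0.35 ± 0.07), UTP11 (0.19) and FBL (0.16 ± 0.06). PPAN, RRP12 and NOP10 stayed positive and called under library size alone, whereas LTV1, UTP3 and UTP11 were no longer called, and FBL turned to -0.16. FBL was also not called with no filter (0.07), nor on leaving out certain single libraries (0.12 to 0.15). UTP20, which fell with each drug, had an interaction of -0.08 ± 0.09 that was not called, but was called negative under library size alone (-0.40).

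**Figure D4:**
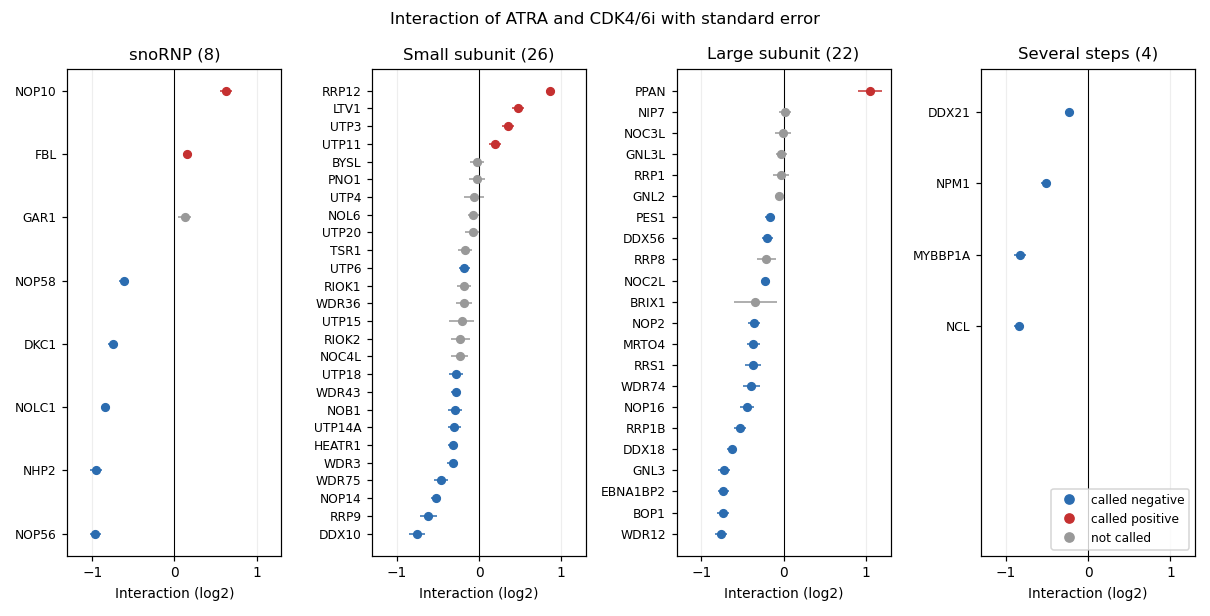
Interaction of ATRA and CDK4/6i on the log2 scale (x axis) for each gene, by class (panels), with standard errors. Negative called values are blue, positive called values red and values not called gray. All 4 factors of several steps are blue, and the values run from -0.96 for NOP56 to 1.05 for PPAN.

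Other genes of ribosome production were taken from lists of known function. Under CDK4/6i+ATRA, 29 of 33 tested other small subunit factors fell and 3 rose, with a median log2 fold change of -0.97, where 40.7% of all genes fell and 41% rose. Of 42 other large subunit factors, 37 fell and 3 rose, with a median of -1.01. All 10 tested snoRNP assembly factors fell, with a median of -1.97, among them TCOF1 (-3.62), which promotes rRNA gene transcription, and the ATPase RUVBL1 (-2.56). The nuclear exosome trims and degrades nuclear RNA. Its list, which also holds cofactors and the separate exonuclease XRN2, had 12 of 14 genes lower and none higher, with a median of -0.83.

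Cytosolic ribosomal protein genes moved the other way under CDK4/6i+ATRA. Here 29 of 31 tested small subunit proteins rose and 2 fell (RPS10 and RPS26), with a median of 0.66. Of the large subunit proteins, 45 of 47 rose and RPL17 fell, with a median of 0.58. The standard error was 0.22 for RPS10 and 0.12 for RPL17, beside 0.04 for RPS26, and 0.20 for RPS9, which rose. Exons shared with other genes were not examined for these 2 lists. Under ATRA none of either list rose, and 20 and 39 fell, where 35.5% of all genes fell. Their ATRA medians were -0.13 and -0.15, and with DESeq2 size factors 15 and 30 fell, where 33.6% of all genes fell. Under CDK4/6i, 25 and 44 rose, where 28.3% of all genes rose, with medians of 0.25 and 0.28. Under library size alone 27 and 43 rose under CDK4/6i+ATRA, with medians of 0.40 and 0.31. Of all 13318 genes tested, 4376 rose with that scaling and 5461 (41%) rose with TMM. Ribosomal protein genes have many processed pseudogenes, and how reads with several matches were counted was not given in the sources used here.

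**Figure D5:**
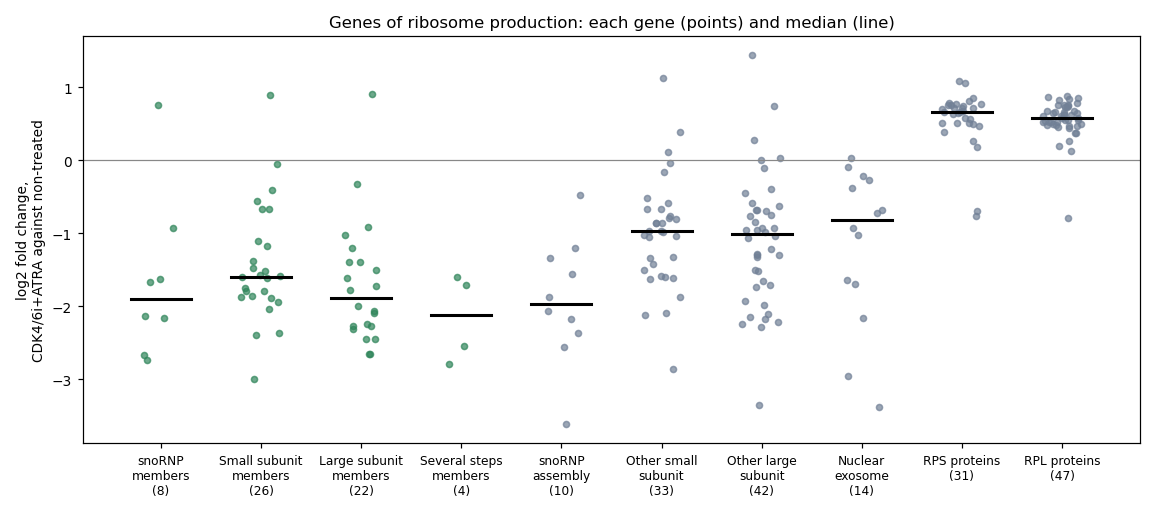
Log2 fold change of CDK4/6i+ATRA against non-treated cells (y axis) for each gene (points) of the 4 classes (green) and of 6 other lists of ribosome production (gray), with the median as a line and the number of genes in parentheses. Assembly factors and genes of the exosome list lie mostly below 0 and ribosomal protein genes mostly above it, with medians of 0.66 and 0.58.

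Since most assembly factors moved together, the sequence around their start sites was searched in the RefSeq promoter table of GRCh38.p14, from 250 bases before to 50 after each start. Of the 60 genes, 53 had an entry, with 60 windows. The palindromic E-box CACGTG, read on both strands, was found in 24 of the 60 windows, beside 7.3% of 35116 windows of all genes and 9.6% of those of the genes tested. CCGGAAG, a core recognized by ETS factors, was found on either strand in 38.3% of the windows, beside 10.3% of all and 17.6% of those of the genes tested. The palindromic motif of NRF1 was found in 8.3%, beside 1.2% and 2.1%. AAGATGGC, on either strand, was found in 3.3%, which lies above the 2.9% of all windows and below the 5.1% of those of the genes tested. Of 26 E-box matches, 17 (65.4%) began after the start site, beside 11.1% of the matches in all windows, although windows from neighbouring starts can hold the same site.

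The sites below are shown for genes with large falls (RRP9, MRTO4, GNL3, MYBBP1A and UTP20), for FBL and LTV1, which fell less, and for NOP10, which rose. Capitals mark the E-box, and each sequence is read 5′ to 3′ on the strand of the gene.
RRP9, chr3:51941892-51941921, minus strand: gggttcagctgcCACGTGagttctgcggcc
MRTO4, chr1:19251807-19251836, plus strand: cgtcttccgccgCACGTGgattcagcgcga
GNL3, chr3:52686026-52686055, plus strand: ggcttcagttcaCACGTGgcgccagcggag
MYBBP1A, chr17:4555340-4555369, minus strand: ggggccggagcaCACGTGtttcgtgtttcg
UTP20, chr12:101280083-101280112, plus strand: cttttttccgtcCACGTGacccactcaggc
FBL, chr19:39846356-39846385, minus strand: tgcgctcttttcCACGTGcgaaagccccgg
LTV1, chr6:143843354-143843383, plus strand: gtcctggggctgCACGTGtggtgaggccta
NOP10, chr15:34343130-34343159, minus strand: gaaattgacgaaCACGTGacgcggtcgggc

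Under CDK4/6i+ATRA, most genes fell both with and without an E-box. The 23 genes with a match had a median log2 fold change of -1.78 and 22 of them fell, while the 30 genes without a match had a median of -1.60 and 28 fell. With a match, the values ran from -3.00 for RRP9 to 0.75 for NOP10. The median was -1.61 for the 23 genes with CCGGAAG and -1.79 for the 30 without it, and -2.17 for the 5 genes with the NRF1 motif and -1.62 for the 48 without it. These matches describe the sequence, and no binding was measured here.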

How the data were processed

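RNA-Seq libraries from 12 HL60 cultures were used. The authors trimmed reads with Trimmomatic 0.33, aligned them with STAR 2.7.11a to hg38, with genes from NCBI RefSeq, and deposited raw counts per gene without normalization. The table has the layout of featureCounts, whereas the methods name RSEM. Genes were filtered with filterByExpr (13318 of 59251 kept), normalized with TMM and tested with a quasi-likelihood F test in edgeR 4.0.16 (R 4.3.3) on the 4 groups, which left 8 residual degrees of freedom. Adjusted p (Benjamini-Hochberg, across every tested gene) had to be under 0.05. Biological variation between libraries was 3.70% (common coefficient). The labels call the libraries biological replicates. The p-values rest on the spread between these cultures of 1 line and carry no variation between lines. CPM were computed with TMM, marker sums with library totals, and levels per kb with exon bases on primary chromosomes. Tested on simulated counts, the comparison of CDK4/6i+ATRA with non-treated cells recovered 49 of 50 genes changed 1.5-fold and 100 of 100 changed 2-fold. The interaction recovered 44 of 50 and 99 of 100 (12274 genes). Unchanged genes were called in 11 and 9 cases. The simulated counts held few changed genes, as many up as down, in the CDK4/6i+ATRA libraries alone. They therefore could not show how the choice of scaling affects the calls.

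The members, classes and lists were chosen with earlier results of these data known. Per-library values are given for the snoRNP and several-step factors, for the 4 largest and 2 smallest changes with CDK4/6i+ATRA in each subunit class, and for factors that rose. BRIX1 was added after its values were seen. Alternatives were DESeq2 size factors, library size alone, 2 other filters, a replicate block, only the groups compared, DESeq2 1.42.0 and leaving out each library. Added after seeing the data were leaving out genes on alternate contigs or with shared exons, and the comparison of ATRA with CDK4/6i.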

Additional observations from a re-analysis of the deposited data

How the results depend on the processing

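The direction of the median of the 60 genes and of each class was kept under each alternative run, and 902 of 1001 counts and medians stayed within 1.5 times (counts) or 1 SD between libraries (medians). That SD was 0.02 to 0.04. Scaling by library size alone moved the median of all genes from 0.02 to -0.25 for CDK4/6i+ATRA versus untreated cultures, from 0.001 to -0.28 against CDK4/6i, from 0.04 to -0.26 against ATRA and from -0.02 to -0.34 for the interaction, and the share of lower calls from 50.2% to 63.3% against CDK4/6i and from 47.0% to 68.4% against ATRA. TMM factors were 0.840 to 0.893 in CDK4/6i+ATRA libraries and 1.03 to 1.07 in the others, and the 10 highest genes took 9.98% to 11.1% and 6.34% to 8.28% of the counts. Depth limited BRIX1 most, with 17 counts in its lowest library.

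In the order all 60 genes, snoRNP, small subunit, large subunit and several steps, the medians under library size alone were -1.99, -2.17, -1.87, -2.16 and -2.39 for CDK4/6i+ATRA versus untreated cultures, -1.73, -1.83, -1.59, -1.85 and -2.10 against CDK4/6i, -0.86, -1.33, -0.73, -0.88 and -1.10 against ATRA, and -0.58, -0.99, -0.52, -0.67 and -0.99 for the interaction, with 54 negative and 3 positive interactions (45.5% of all genes tested were negative). With no filter they were -1.83, -2.02, -1.71, -1.999 and -2.24 against non-treated cells, -1.56, -1.65, -1.41, -1.67 and -1.92 against CDK4/6i, -0.65, -1.12, -0.51, -0.66 and -0.88 against ATRA, and -0.34, -0.76, -0.28, -0.44 and -0.75 for the interaction. Fitting only the groups compared gave -1.09, -0.97, -1.06, -1.24 and -1.21 for ATRA against non-treated cells and -0.62, -1.09, -0.49, -0.64 and -0.86 for CDK4/6i+ATRA against ATRA.

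For ATRA against non-treated cells, the median of all 60 genes was -1.11 with DESeq2 size factors, with DESeq2 and with at least 10 counts in every library, and library size alone gave -1.10 for all 60, -0.98 for snoRNP, -1.25 for large subunit and -1.22 for several steps. For ATRA against CDK4/6i it was -0.86 with DESeq2 size factors, DESeq2, library size alone and at least 10 counts. The last filter gave -1.69 for CDK4/6i+ATRA versus untreated cultures and -1.42 against CDK4/6i. Without genes on alternate contigs the snoRNP median against non-treated cells was -1.13 under ATRA, -0.44 under CDK4/6i and -2.16 under CDK4/6i+ATRA, -1.87 against CDK4/6i, -1.13 against ATRA and -0.79 for the interaction, the large subunit median under CDK4/6i+ATRA was -1.79, and all remaining genes had -1.50 against CDK4/6i and -0.28 for the interaction. Without PPAN and BRIX1 the medians were -1.17 for all genes and -1.34 for large subunit with ATRA, and -1.62 for large subunit in CDK4/6i+ATRA against CDK4/6i. The cause of these shifts was not tested.

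Leaving out 1 library at a time gave for all 60 genes -1.17 to -1.13 for ATRA against non-treated cells, -1.75 to -1.71 for CDK4/6i+ATRA versus untreated cultures, -1.49 to -1.43 against CDK4/6i, -0.58 to -0.52 against ATRA and -0.29 to -0.23 for the interaction. For large subunit factors it gave -1.91 to -1.80 against non-treated cells, -0.37 to -0.27 for the interaction and -1.03 to -0.96 for ATRA against CDK4/6i. For small subunit factors it gave -1.65 to -1.59 against non-treated cells, -0.46 to -0.39 against ATRA and -0.25 to -0.19 for the interaction. For snoRNP proteins it gave -1.92 to -1.87 against non-treated cells, -1.04 to -0.99 against ATRA and -0.75 to -0.71 for ATRA against CDK4/6i.

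Of 3454 values of single genes, 3410 kept their direction and side of the threshold, 23 were no longer called, 18 became called and 3 turned under library size alone, namely GNL3L against ATRA (-0.24), FBL in the interaction (-0.16) and GAR1 in the interaction (-0.20). The interaction of FBL was not called without non-treated library 1, ATRA library 2 or 3, CDK4/6i library 2 or 3, or CDK4/6i+ATRA library 2 or 3 (0.12 to 0.15), nor with no filter (0.07). RRP12 was called lower under CDK4/6i+ATRA than in non-treated cells under library size alone (-0.32) and with no filter (-0.16). Same-numbered libraries did not deviate together (r from -0.11 to 0.07), and 0 libraries correlated best with their own number. With the replicate number as a block, the median of the 60 genes for ATRA against non-treated cells was -1.14, no count or median moved, and the call of LTV1 with CDK4/6i was lost (-0.11, adjusted p 0.055 in edgeR, 0.043 without the block). That call was also lost with DESeq2 (adjusted p 0.096), DESeq2 size factors (0.061), library size alone (0.105) and no filter (0.106), and without any 1 non-treated library, ATRA library 2, or CDK4/6i library 1 or 3 (0.05004 to 0.147), and kept in the other alternatives.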
